A study of Mus musculus with 56 samples.

Results

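A set of 9 genes was followed that earlier results of these data had picked for a dose trend in forestomach, or for a response to the highest dose there that was unlike lung: Trub2, Rbm25, Brd7, Rabac1, Gnl2, Noc2l, Hnrnpm, Paf1 and Smc1a. They are 9 of the 20018 genes named on the array and are measured by 11 of its 55681 probes. Lung, liver and forestomach RNA of adult Muta Mouse males, whose transgene serves to count mutations, was hybridized on 56 arrays, with 1 array per mouse and tissue. The mice, about 14 weeks old, received a daily gavage for 28 days. D0 mice got the vehicle, olive oil, and the others also got the polycyclic aromatic hydrocarbon chrysene in it, with daily doses in mg per kg body weight of 17.5 in D1, 50 in D2 and 150 in D3, and organs were taken 72 h after the final gavage. Each of forestomach and liver had 5, 5, 4 and 5 mice in D0 to D3, and lung had 5, 5, 3 and 5. All animals carried the same transgene, vehicle and handling, and RNA came from a random slice of each organ, so that the cells in it may vary.

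Every level given here is a log2 ratio of the sample's signal (Cy5) over that of a universal mouse reference RNA (Cy3) on the same array, so it can be compared between arrays for 1 probe but not between genes. Because the values that picked the members were the forestomach dose contrasts and the difference from lung at D3, and the members were thus chosen by the log2 ratios themselves, their values in those contrasts are given as a description, with standard errors (SE) and no test. The rule states no threshold. D1, D2 and D3 are set against the same D0 arrays. The mice were separate animals. In whole tissue, fewer cells of a type and less RNA per cell cannot be told apart.

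The nucleolus is where ribosomal RNA is made, modified and joined with proteins into ribosomal subunits, and its factors are needed most in growing cells. Messenger RNA is meanwhile elongated by RNA polymerase II with the help of complexes such as PAF1, and spliced under the control of SR proteins and hnRNPs. The forestomach is the squamous, keratinized part of the rodent stomach and the site that a gavaged compound reaches directly. The name nucleolar and RNA genes fits only some of the members. Gnl2 and Noc2l are nucleolar, Trub2, Rbm25 and Hnrnpm act on RNA, Paf1 on transcription, Brd7 and Smc1a on chromatin, and Rabac1, which binds prenylated Rab proteins at the Golgi membrane, is neither nucleolar nor an RNA gene.

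Polycyclic hydrocarbons are known to bind the aryl hydrocarbon receptor, and the promoters of 4 members in which a motif of interest was found are shown. They run from 250 bases before to 25 bases after a transcript start in the RefSeq promoter table (build GRCm38.p6), which in these 4 is also the outer end of the annotated gene, 5′ to 3′ on the gene's strand. Capitals mark GCGTG, the core that the receptor binds, and CACGTG, the E-box of MYC-type factors, each searched on both strands, so that GCGTG may be read as CACGC. None of these matches overlapped.
Trub2, chr2:29787647-29787921, minus strand: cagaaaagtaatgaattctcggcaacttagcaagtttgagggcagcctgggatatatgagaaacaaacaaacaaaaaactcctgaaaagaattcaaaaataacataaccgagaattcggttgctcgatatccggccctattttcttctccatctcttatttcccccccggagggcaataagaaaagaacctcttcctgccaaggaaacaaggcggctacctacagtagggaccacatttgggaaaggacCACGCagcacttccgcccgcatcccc
Rabac1, chr7:24972704-24972978, minus strand: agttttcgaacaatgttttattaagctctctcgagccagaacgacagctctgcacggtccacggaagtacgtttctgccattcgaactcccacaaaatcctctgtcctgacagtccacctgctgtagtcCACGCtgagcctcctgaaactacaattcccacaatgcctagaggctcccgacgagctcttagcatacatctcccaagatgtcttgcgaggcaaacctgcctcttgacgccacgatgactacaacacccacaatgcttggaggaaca
Hnrnpm, chr17:33685434-33685708, minus strand: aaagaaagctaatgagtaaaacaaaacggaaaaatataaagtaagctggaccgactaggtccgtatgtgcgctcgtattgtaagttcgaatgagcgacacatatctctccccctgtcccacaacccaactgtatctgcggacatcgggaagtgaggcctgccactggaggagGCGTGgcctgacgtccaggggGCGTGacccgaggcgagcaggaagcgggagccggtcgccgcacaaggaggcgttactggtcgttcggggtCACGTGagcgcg
Smc1a, chrX:152016178-152016452, plus strand: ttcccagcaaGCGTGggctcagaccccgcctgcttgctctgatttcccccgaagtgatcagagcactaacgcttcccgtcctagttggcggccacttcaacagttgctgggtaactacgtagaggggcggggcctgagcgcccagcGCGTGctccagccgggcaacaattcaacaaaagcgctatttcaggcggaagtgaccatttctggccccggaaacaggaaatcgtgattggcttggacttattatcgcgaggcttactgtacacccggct
The table held promoters of 8 of the 9 members, with 2 entries for Noc2l, and Gnl2 is named only. In 3 of the 8 (Rbm25, Brd7 and Noc2l) the start of the entry lay inside the annotated gene and not at its outer end. Over the 300 bases from 250 before to 50 after the start, GCGTG occurred in 6 of these 8 genes (Trub2, Noc2l, Rabac1, Brd7, Hnrnpm and Smc1a), beside 32.4% of the 32851 promoters of this length in the table. It was absent from the entries of Rbm25 and Paf1. A part of the receptor in the members' values was not tested. CACGTG occurred in Hnrnpm alone of the 8, beside 7.15% of all promoters. The GC box GGGCGG occurred in 6 of the 8 genes (35.7% of all promoters), CCAAT in 2 (37.4%) and CCGGAA in 2 (14.9%). Such a match is a description of letters and not of binding.

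The forestomach arrays differed in brightness between slides, which each held all dose groups. The 95th percentile of the Cy5 signal was 278.5 to 1158 on the 12 arrays of slides 1 and 2 and 2412 to 6586 on the 7 arrays of slide 3, whereas that of Cy3 stayed between 6460 and 7483. On slides 1 and 2 it was lowest at D0, at 278.5 to 501, against 520.9 to 1158 at D3, and on slide 3 it was 5886 to 6220 at D0 and 4636 to 5720 at D3. On 17 of the 19 arrays the column on the slide was the dose step plus 1, so that column and dose can hardly be told apart. All 12 keratinocyte markers were detected in forestomach, with a mean from -0.72 to 0.81 at D0 and -0.16 to 0.91 at D3 around the D0 mean. The mean of 11 glandular stomach markers, all detected, ranged from 0.24 to 7.12 over the forestomach arrays, with D0 arrays from -3.55 to 3.03 and D3 arrays from -3.60 to 3.06 around the D0 mean. Around its own D0 mean, that of 8 smooth muscle markers, all detected, was -0.40 to 0.66 at D0 and 0.20 to 1.22 at D3. The same means were -1.68 to 2.40 and -1.52 to 1.01 for 7 adipocyte markers (5 detected), -1.56 to 1.83 and -0.80 to 1.82 for 7 hepatocyte markers (6 detected), and -0.48 to 0.98 and -0.54 to 4.55 for 10 pancreatic acinar markers (3 detected). The part of brightness, column and tissue makeup in the members' values was not tested, and the values on each slide are given beside them.

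In forestomach, 8 of the 9 members had a higher mean log2 ratio at D3 than at D0, by 0.50 (Hnrnpm) to 0.76 (Rbm25), and Rabac1 had a lower one. The median of the 9 D3 changes was 0.64. Over all 27491 probes tested the median was -0.0015, and the 5th and 95th percentiles were -0.42 and 0.50. When arrays were only centred on their median, without LOWESS, the median over all probes was 0.18 and the changes of most members were larger. They were then 1.29 for Trub2, 1.23 for Smc1a, 1.21 for Paf1, 1.16 for Noc2l, 1.15 for Brd7, 1.05 for Hnrnpm and 1.02 for Gnl2. Rabac1 is treated below, and Rbm25 had its largest change over the settings run, 1.16, with column as a covariate. The mean was higher at each successive dose for 7 members, where 5.59% of all probes did so. All D2 arrays lay above all D0 arrays for 5 members (background 0.957%). All D3 arrays lay above all D0 arrays for 6 members (background 0.862%) and below them for 1 (0.52%), and since the rule used these arrays nothing is read from these counts. By limma, 0.00728% of all probes passed an adjusted p of 0.05 with a fold change of 1.5 at D3, and 0.04% in the dose trend. These were 2 and 11 probes, and when 1 mouse was left out 0 to 6 and 0 to 50. Over the processing settings run, the counts went from 0 to 430 at D3 and from 0 to 586 in the trend. Both were highest on slides 1 and 2 alone, a choice made after seeing the data.

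Trub2, a pseudouridine synthase of the TruB family, is read by 10 spots of its leading probe (the brighter of its pair of probes) on each array. Its log2 ratio at D0 was -0.44, -0.57, -0.28, -0.21 and -0.52 in mice 1 to 5, and at D3 0.31, 0.26, 0.49, 0.19 and 0.19 in mice 16 to 20. Every D3 array lay above every D0 array, and the D2 arrays, at 0.17 to 0.25, lay above D0 too. D1 overlapped with D0, at -0.33 to 0.10. The means went from -0.40 ± 0.16 (SD, n = 5) at D0 through -0.095 ± 0.18 (n = 5) and 0.20 ± 0.038 (n = 4) to 0.29 ± 0.12 (n = 5), and the D3 change was 0.69 (SE 0.10), or 1.61-fold. It was 0.72, 0.73 and 0.74 on slides 1, 2 and 3. The spots of one array had an SD of 0.093 at the median, but of 0.26, 0.24 and 0.43 on the dim D0 arrays of slides 1 and 2 (mice 1, 3 and 4) and of 0.22 on the D3 array of slide 2. The other Trub2 probe did not go with it. This probe was dim, with a Cy5 signal of 63 to 147.5 that stood well above background on 8 of 19 arrays, and its D3 change was 0.010 (SE 0.12).

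Rbm25 binds RNA and takes part in the choice of splice sites. Its D0 arrays read -0.80, -1.37, -0.78, -0.70 and -1.12, and its D3 arrays -0.29, -0.20, 0.00055, -0.49 and 0.0017. The groups did not overlap, and the means stepped from -0.95 ± 0.28 at D0 to -0.69 ± 0.11, -0.32 ± 0.24 and -0.19 ± 0.21 (n = 5, 5, 4 and 5). The D3 change of 0.76 (SE 0.14, 1.69-fold) was 0.56, 0.74 and 1.00 on slides 1, 2 and 3. Its Cy5 signal was not well above background in D0 mice 1, 3 and 4, which were 3 of the 19 arrays and all the D0 arrays of slides 1 and 2. The D0 level there, and with it the change on these slides and in all, is therefore not well measured.

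Hnrnpm, an hnRNP that controls alternative splicing, had D0 values of -1.23, -1.26, -0.90, -1.17 and -1.54 and D3 values of -0.99, -0.50, -0.50, -0.76 and -0.84. Mouse 3 of D0 lay above mouse 16 of D3, so the groups overlapped by these arrays. The mean was highest at D2 (-0.69 ± 0.28, n = 4) and did not go higher at D3 (-0.72 ± 0.21, n = 5), after -1.22 ± 0.23 at D0 and -0.90 ± 0.13 at D1. The D3 change was 0.50 (SE 0.14), with 0.48, 0.53 and 0.60 within the slides.

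Gnl2 is a nucleolar GTPase that helps to mature the large ribosomal subunit. Its values were -0.86, -1.38, -0.82, -1.02 and -1.32 at D0 and -0.48, -0.63, -0.49, -1.01 and -0.24 at D3. Mouse 19 of D3 stood with the D0 mice, and the other D3 arrays lay above them all. Its means were -1.08 ± 0.26, -0.80 ± 0.11, -0.72 ± 0.21 and -0.57 ± 0.28 from D0 to D3. The D3 change was 0.51 (SE 0.15), with 0.31, 0.44 and 0.73 on the slides. Its signal was not well above background in mouse 4 of D0, on slide 2.

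Noc2l, a nucleolar protein that also inhibits histone acetylation, read -0.82, -0.93, -0.95, -0.56 and -0.69 at D0 and -0.37, 0.055, -0.11, -0.42 and 0.12 at D3. No D3 array reached down to D0. The D1 and D2 means were close, at -0.49 ± 0.15 and -0.44 ± 0.19, between -0.79 ± 0.17 at D0 and -0.14 ± 0.24 at D3. The change of 0.64 (SE 0.13, 1.56-fold) was 0.66, 0.64 and 0.66 on the slides.

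Paf1 gives its name to the complex that travels with RNA polymerase II. It read -0.48, -0.51, -0.73, -0.72 and -0.44 at D0 and -0.32, 0.17, 0.15, -0.026 and 0.45 at D3. The groups were apart, with mouse 16 of D3 the nearest to the D0 mice. Its D1 arrays spread widely, from -0.69 to 0.21. The D3 change was 0.66 (SE 0.16), with 0.41, 0.87 and 0.69 on the slides.

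Smc1a, a core subunit of cohesin, the ring that holds sister chromatids and chromatin loops, read -1.52, -1.35, -1.32, -1.73 and -1.25 at D0. At D3 it read -0.93, -0.61, -0.74, -0.85 and -0.62, all above D0. The mean was -1.43 ± 0.19 at D0, -1.09 ± 0.24 at D1, -0.88 ± 0.12 at D2 and -0.75 ± 0.14 at D3. The D3 change was 0.69 (SE 0.12, 1.61-fold), and 0.75, 0.79 and 0.56 within the slides.

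Brd7, a bromodomain subunit of a SWI/SNF chromatin remodeller, had a tight D0 group at -0.74, -0.77, -0.68, -0.80 and -0.88. Its D3 arrays read -0.37, -0.14, 0.12, -0.33 and -0.20, all above D0. The D1 and D2 means lay in between, at -0.53 ± 0.11 and -0.36 ± 0.19. The D3 change was 0.59 (SE 0.11), with 0.48, 0.86 and 0.56 on the slides.

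Rabac1 was the member that went the opposite way, on each of its pair of probes. The leading probe read 0.17, 0.38, 0.38, 0.19 and 0.070 at D0 and 0.049, -0.36, -0.13, -0.36 and -0.11 at D3. Every D3 array lay below every D0 array, by little in mouse 16. The D3 change was -0.42 (SE 0.13), and the mean at D2 (0.029 ± 0.32) was not below that at D1 (0.0027 ± 0.14). The other probe read 0.76, 0.67, 0.74, 0.93 and 0.41 at D0 and 0.23, -0.26, -0.21, -0.26 and -0.12 at D3. It stepped down at each dose, from 0.70 ± 0.19 through 0.25 ± 0.20 and 0.13 ± 0.27 to -0.12 ± 0.20, with a D3 change of -0.82 (SE 0.14, 1.77-fold lower). Within the slides this change was -0.78, -1.04 and -0.72, and that of the leading probe -0.32, -0.42 and -0.46. The sizes on the pair differed, while each was well above background on all 19 arrays. When arrays were only centred on their median, without LOWESS, the leading probe's D3 change turned to 0.10 and the other's became -0.25, with the median over all probes moved to 0.18.

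**Figure D1:**
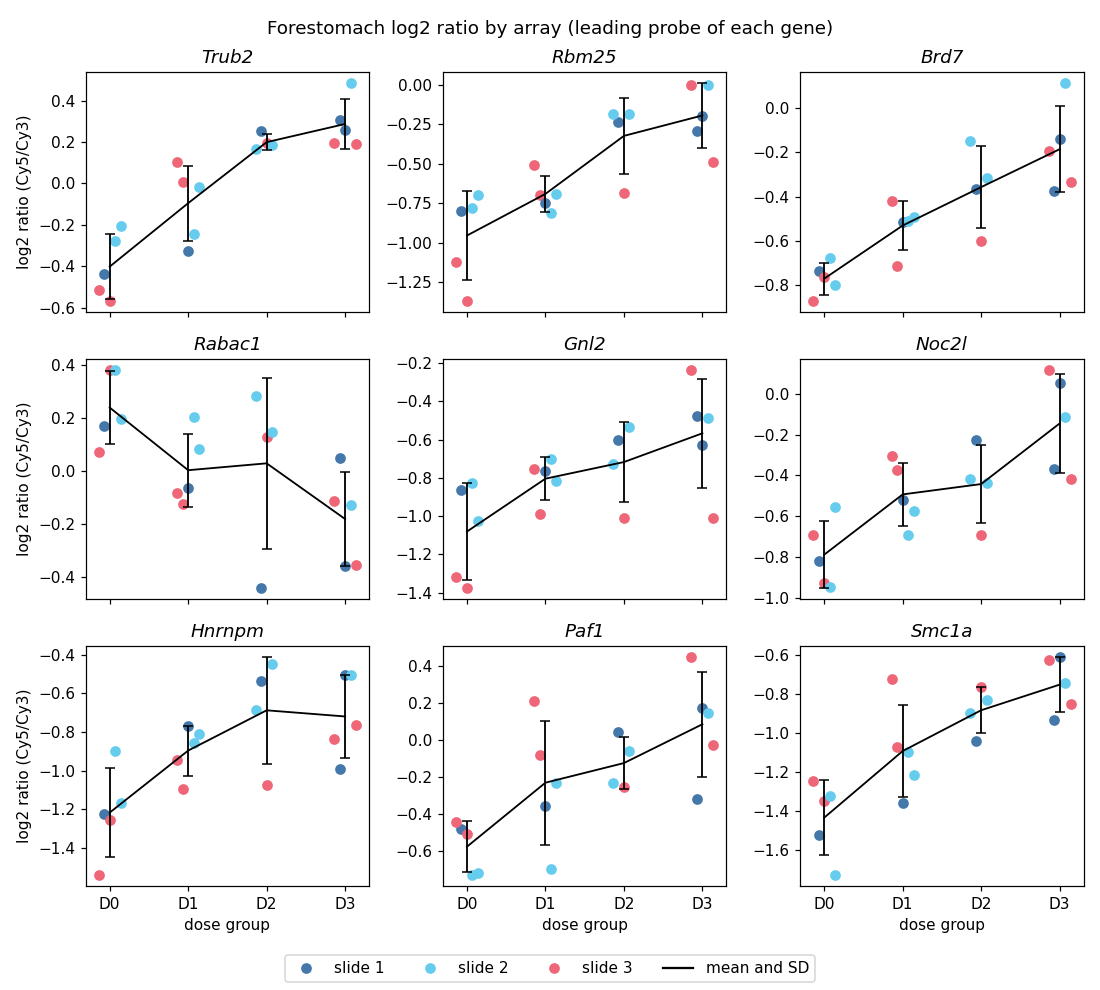
Log2 ratio of Cy5 over Cy3 on each of the 19 forestomach arrays (points, colored by slide) for the leading probe of each member, by dose group, with group means and SD in black. D3 arrays lie above all D0 arrays for 6 members and below them for Rabac1.

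The slide and the column were looked at beside these values. The 9 leading probes had the same direction of the D3 difference on each of the 3 slides, as the plot of differences within slides shows. Such a difference rests on 1 or 2 arrays per group (1 at D0 and 2 at D3 on slide 1, 2 and 1 on slide 2, and 2 and 2 on slide 3). Since the rule used these same arrays to pick the members, nothing is read from the shared direction. With column as a covariate the D3 change of Rbm25 was 1.16 and that of Gnl2 0.85, each over 1.5 times the value without it. The Cy3 signal of the leading probes differed between D0 and D3 by only -0.043 to 0.11 on the log2 scale, and the Cy5 signal by -0.049 (Rabac1) to 1.18 (Trub2).

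**Figure D2:**
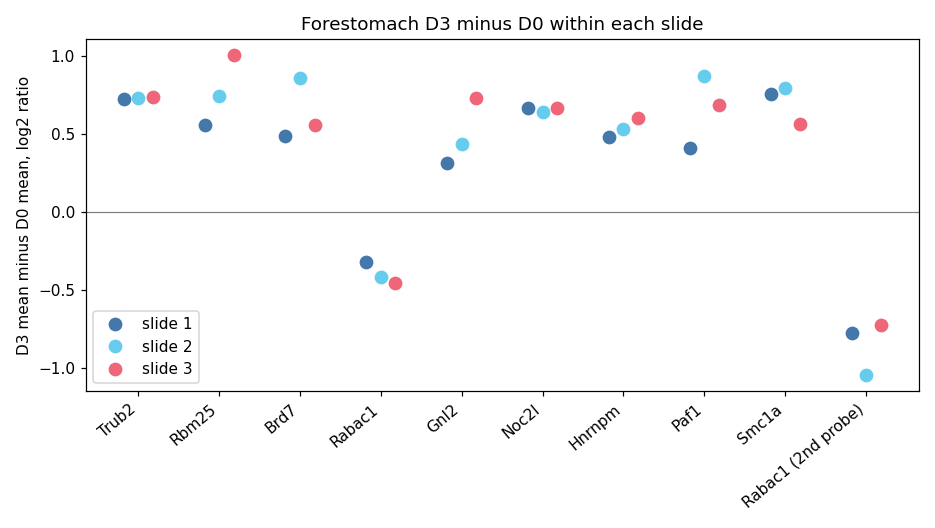
Forestomach D3 mean minus D0 mean of the log2 ratio within each of 3 slides, for the leading probe of each member and for the other Rabac1 probe. Trub2 lies between 0.72 and 0.74 on every slide, and both Rabac1 probes lie below 0 on each.

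Across the 19 forestomach arrays, after taking off the mean of each dose group, the 8 members that were higher at D3 were loosely related. Of their 28 pairs, 25 had a correlation above 0, with a median of 0.27 and a range from -0.17 to 0.80. The highest was that of Rbm25 with Gnl2 (0.80), followed by Brd7 with Hnrnpm (0.71) and Noc2l with Paf1 (0.69). Hnrnpm with Smc1a was the lowest (-0.17). The same 28 pairs had 20 above 0 in liver (median 0.24) and 19 in lung (median 0.19). In forestomach some members also went with the brightness of the array, and not in the same sense. Within dose groups the correlation with the Cy5 95th percentile was 0.59 for Smc1a and 0.45 for Paf1, against -0.67 for Hnrnpm, -0.58 for Rbm25 and -0.56 for Gnl2 (19 arrays each). These points share slides and brightness, no share over pairs of other probes was computed, and the values are descriptive. Nothing particular to the members is read from these correlations. With the Cy5 level as a covariate, an alternative chosen after seeing the data, the D3 changes of the leading probes stayed between 0.55 and 0.80 for the 8 members and at -0.41 for Rabac1.

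In lung at D3, which the rule used, the 8 members showed little of this. Their D3 changes in lung lay between -0.16 (Hnrnpm) and 0.075 (Rbm25), where 0.127% of all lung probes were called. The forestomach change exceeded the lung change by 0.62 (Trub2, SE 0.13) to 0.74 (Paf1, SE 0.15), and 0.707% of all probes were called in that difference. The leading probe of Rabac1 had -0.42 in forestomach and -0.39 in lung, a difference of -0.032 (SE 0.16). On its other probe the difference was -0.52 (SE 0.17). The lung value of Rabac1 rested on a pair of mice. Mice 17 and 19 of D3 read 0.95 and 0.79, and the other D3 mice 1.49, 1.46 and 1.48, within the D0 range of 1.42 to 1.74. In these same lungs the mean of 10 skeletal muscle markers lay 6.22 and 6.00 above the D0 mean, and on the other 16 lung arrays from -0.18 to 0.58. The mean of 12 keratinocyte markers lay 3.03 and 3.50 above it, and from -0.074 to 0.091 on the others. Without mice 17 and 19, a choice made after seeing the data, the lung change of Rabac1 at D3 was -0.15 (SE 0.077), and forestomach minus lung was -0.27 on the leading and -0.75 on the other probe. For the 8 members the forestomach change then exceeded that of lung by 0.53 (Trub2) to 0.75 (Noc2l). The part of other tissue in the lung values was not tested.

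**Figure D3:**
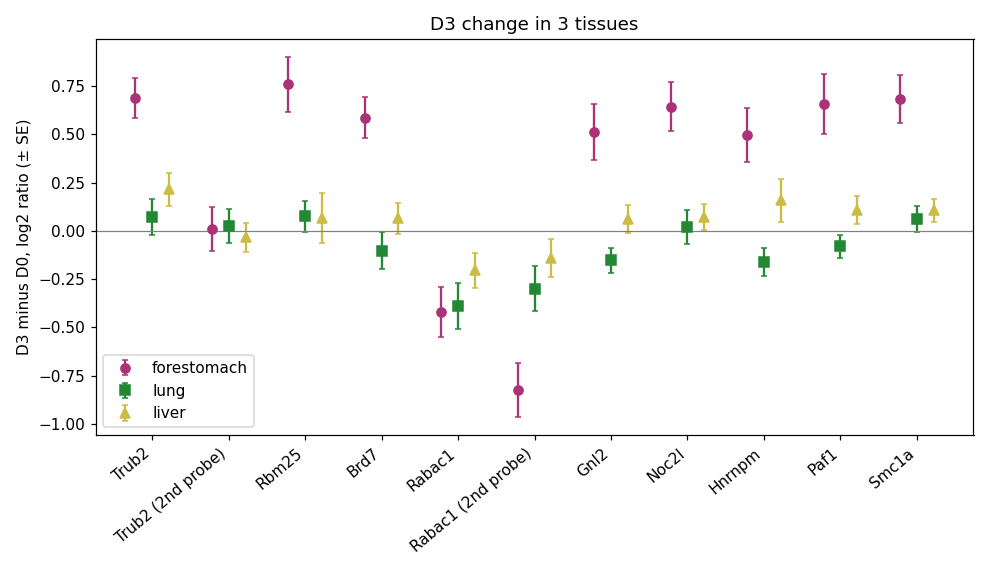
D3 minus D0 log2 ratio with SE for all 11 probes of the members in forestomach (circles), lung (squares) and liver (triangles). On the leading probes, the forestomach values of the 8 members that were higher lie at 0.50 or above and their lung and liver values between -0.16 and 0.22, while the dim second Trub2 probe lies at 0.010 in forestomach.

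Lung D1 and D2 and all liver doses were not used by the rule and were tested. In liver, limma called 0 members at D1, D2 or D3 (fold change of at least 1.5 and adjusted p of at most 0.05), beside 0% of all 24692 probes tested. Unadjusted p-values of 0.05 or less were found for 0, 2 and 2 members at D1, D2 and D3, beside 3.61%, 3.79% and 4.79% of all probes. Trub2 was among them at both D2 and D3. Its liver values lay between -0.997 and -0.847 at D0, -0.58, -0.58, -0.74 and -0.72 at D2, and -0.71, -0.87, -0.47, -0.54 and -0.92 at D3. The D2 arrays all lay above D0 (0.693% of all probes did), and the D3 arrays overlapped with D0. The liver change was 0.26 (SE 0.092, limma adjusted p 0.998) at D2 and 0.22 (SE 0.087, adjusted p 0.978) at D3. In the trend over dose steps it was 0.26 (SE 0.086, adjusted p 0.854), and 0 members were called, beside 0% of all probes (5.43% at an unadjusted p of 0.05 or less, and 2 members, Trub2 and Rabac1). The other probe of Trub2, well above background on only 3 of 19 liver arrays, had 0.18 (SE 0.078) at D2 and -0.033 (SE 0.074) at D3.

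For Rabac1 in liver, D3 minus D0 was -0.20 (SE 0.092, adjusted p by limma 1.00), with D0 arrays from -0.55 to -0.40 and D3 arrays from -0.87 to -0.35. Mouse 20 lay above all D0 mice and the other D3 mice below them. Paf1 had 0.17 (SE 0.078, adjusted p 0.998) at D2. The remaining liver changes at D3 lay between 0.062 (Gnl2) and 0.16 (Hnrnpm). In each liver dose the widest 95% interval of a member reached 0.27 to either side of its estimate or less.

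In lung, limma called 0 members at D1 and 0 at D2, beside 0% of all 31448 probes, with 0 and 1 members having an unadjusted p of 0.05 or less (5.88% and 6.12% of all probes). Rbm25 at D2 was the 1 member. Its lung arrays read -0.75, -0.87, -0.65, -0.68 and -0.41 at D0 and -0.53, -0.40 and -0.28 at D2, so the groups overlapped through mouse 5 of D0, and the change was 0.27 (SE 0.094, adjusted p 0.687). Lung D1 changes of the other members lay between -0.074 (Hnrnpm) and 0.13 (Trub2), and the widest interval at D1 and D2 reached 0.27 to either side.

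The levels of the members were also compared between tissues in the vehicle-treated mice. Each tissue was hybridized on slides of its own, so that tissue and slide cannot be told apart in these differences. The Cy5 95th percentile was 278.5 to 6586 over all forestomach arrays, 2348 to 5354 over liver and 4504 to 7973 over lung. The part of slide and brightness was not tested. Between forestomach and lung, limma called 7 of the 9 members at D0, beside 38.8% of all probes, so that such differences were common. In 6 of these 7 the forestomach had the lower level, and Noc2l alone was higher there. Noc2l read -0.79 ± 0.17 (SD, n = 5) in forestomach, -1.23 ± 0.045 in liver and -1.68 ± 0.074 in lung, a forestomach minus lung difference of 0.89 (SE 0.087, adjusted p 4.65e-07). With arrays only centred on their median this difference turned to -1.44 (adjusted p 0.0733). The lung minus liver difference of Noc2l, -0.45, then turned to 0.72.

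The leading Rabac1 probe read 1.62 ± 0.13 in lung, 0.24 ± 0.14 in forestomach and -0.47 ± 0.067 in liver, each step being past the limits, with forestomach minus lung at -1.38 (SE 0.090, adjusted p 5.18e-09) and forestomach minus liver at 0.71 (SE 0.090, adjusted p 6.49e-06). The latter turned to -0.79 with median centring. The other Rabac1 probe had the same order with a smaller step of -0.72 (SE 0.10, adjusted p 1.98e-05) for forestomach minus lung and a larger one of 0.95 (SE 0.10, adjusted p 8.65e-07) for forestomach minus liver. Hnrnpm had the same order, with -0.44 ± 0.045 in lung, -1.22 ± 0.23 in forestomach and -2.03 ± 0.20 in liver. Its forestomach minus liver difference of 0.81 (SE 0.12, adjusted p 2.47e-05) became 0.57 with loess on the scanner signals, below the fold limit, and -0.73 with median centring.

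Smc1a, Paf1, Brd7 and Trub2 were highest in lung and lower by 1.10, 0.77, 0.88 and 0.62 in forestomach, with SE of 0.086 to 0.099 and limma adjusted p of at most 8.01e-05. With median centring these forestomach minus lung differences were larger, at -3.22, -3.01, -3.10 and -2.86. Those of Rabac1 and Hnrnpm were then -3.17 and -2.925. For Smc1a and Paf1 the next neighbours, forestomach and liver, did not differ beyond their spread (0.041, SE 0.098, and 0.12, SE 0.086). Brd7 and Trub2 were higher in forestomach than in liver by 0.24 and 0.52, under the fold limit, with adjusted p of 0.0463 and 0.000372. The call for Trub2 against lung was lost without mouse 5 (-0.51) and with array weights (-0.58, 6 members called beside 41.1% of all probes), and the dim second probe went the other way (0.30, SE 0.11, adjusted p 0.0246, under the fold limit). Rbm25 and Gnl2 passed the limits in none of the 3 tissue pairs, with forestomach minus lung at -0.28 (SE 0.15, adjusted p 0.125) and -0.12 (SE 0.11, adjusted p 0.391). With median centring they passed against lung (-2.29 and -2.36), and 8 members were called in that pair, beside 55.5% of all probes. In forestomach minus liver 2 of the 9 members were called (Rabac1 and Hnrnpm), beside 38.8% of all probes. In that pair median centring put all 9 members below 0, at -0.72 (Noc2l) to -1.48 (Smc1a), with Trub2 at -1.05, Brd7 at -1.19 and Paf1 at -1.15, and called 0 of them beside 13.4% of all probes. Between lung and liver 6 members passed, all higher in lung, beside 48.8% of all probes.

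**Figure D4:**
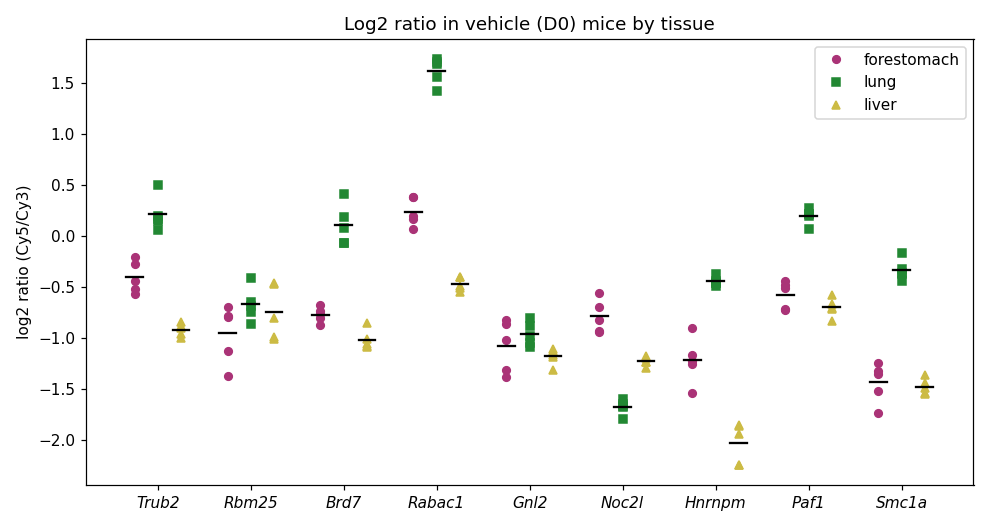
Log2 ratio on each of the 15 vehicle (D0) arrays by member and tissue (circles forestomach, squares lung, triangles liver), with the tissue mean as a bar. Rabac1 has the widest gap, from -0.47 in liver to 1.62 in lung, and Noc2l is higher in forestomach than in lung.

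Other genes of the members' pathways were taken from 10 lists. Of 212 listed genes that are no members, limma called 0 in forestomach at D3, beside 0.00728% of all probes. Judged by an unadjusted p of 0.05 or less, 37 (17.5%) were higher and 4 (1.89%) lower, where 5.45% and 3.79% of all probes were. Each listed gene counted by its brightest tested probe, whereas all probes include dim and repeated ones, so these shares are not on the same footing. The median D3 change of the 212 was 0.13. All 4 lower genes belonged to the Rab acceptor and Yip list, which holds no RNA gene. Nothing particular to them is read from the counts.

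Among 22 hnRNPs, which package and splice nuclear RNA, 8 were higher at this unadjusted limit and 0 lower, with a median change of 0.21. Hnrnph1 had the largest estimate, from -1.58 ± 0.32 at D0 to -0.64 ± 0.32 at D3 (0.94, SE 0.20, adjusted p 0.134), and Hnrnpk the lowest (-0.19, SE 0.13). Among 37 splicing factors 7 were higher and 0 lower, with a median of 0.20. Srsf5, an SR protein, had 0.92 (SE 0.24, adjusted p 0.180) and Srsf3, another, -0.30 (SE 0.17). Among 35 ribosome assembly factors 8 were higher and 0 lower, with a median of 0.14. Ncl, the nucleolar protein nucleolin, had 0.78 (SE 0.21, adjusted p 0.202) and Gnl3l, a GTPase related to Gnl2, -0.25 (SE 0.22).

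In the list of pseudouridine and rRNA modification, 4 of 18 genes were higher and 0 lower (median 0.15). Nop56, a core protein of box C/D particles, had 0.54 (SE 0.16, adjusted p 0.228) and Nop10, of box H/ACA particles, -0.31 (SE 0.18). RNA polymerase I and its factors had a median of -0.011, with 1 of 14 genes higher, the initiation factor Rrn3 (0.40, SE 0.18), and Polr1c lowest (-0.22, SE 0.15). Around PAF1 and elongation 3 of 18 were higher (median 0.11), while the largest estimate, that of Leo1 in the PAF1 complex, was 0.56 with a wide SE (0.37), and Ccnt1 had -0.24 (SE 0.17).

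Of 16 cohesin genes 1 was higher (median 0.14), namely Smc3, the partner of Smc1a in the ring, at 0.37 (SE 0.13), while the cohesin release factor Wapl had -0.20 (SE 0.26). Of 18 SWI/SNF genes 2 were higher (median 0.20), with the ATPase Smarca2 at 0.37 (SE 0.16) and Actl6a at -0.041 (SE 0.10). Of 15 Rab acceptor and Yip genes 0 were higher and 4 lower (median -0.18), with the Golgi protein Yipf1 at -0.54 (SE 0.16, adjusted p 0.248) and Chm, an escort protein for Rabs, at 0.098 (SE 0.15). Proliferation genes had 3 of 19 higher (median 0.043), with the replication helicase subunit Mcm6 at 0.53 (SE 0.19) and Cdk1 at -0.33 (SE 0.39).

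The list medians depended on the arrays and on the processing. With median centring all 10 lay above 0, that of the Rab acceptor list too (0.14, where the median of all probes was 0.18), and 0 listed genes passed an unadjusted p of 0.05. With column as a covariate the Rab acceptor median was -0.25 and the others ran from 0.26 (cohesin) to 0.43 for proliferation and 0.44 for hnRNPs, where that of all probes was 0.047. On slides 1 and 2 alone, a choice made after seeing the data, the medians were -0.19 for proliferation and for the Rab acceptor list, 0.0062 for PAF1 and elongation, 0.069 for SWI/SNF, 0.073 for splicing factors, 0.10 for RNA polymerase I, 0.11 for ribosome assembly and hnRNPs, 0.13 for pseudouridine and rRNA modification and 0.17 for cohesin. On slide 3 alone they ran from 0.17 (pseudouridine and rRNA modification) to 0.40 (proliferation), with -0.25 for the Rab acceptor list. The RNA polymerase I median was 0.059 with loess on the scanner signals, 0.063 with normexp background before loess and 0.10 with the Cy5 covariate. The proliferation median was then 0.13, 0.14 and 0.18, where that of all probes was 0.020, 0.024 and 0.0053. With slide as a block the RNA polymerase I median was 0.0040, and with array weights the proliferation median was -0.021.

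With the mean over all probes of a gene, the medians were 0.011 for PAF1 and elongation, 0.099 for SWI/SNF, -0.042 for proliferation and -0.019 for RNA polymerase I, and the other 6 stayed within 1.5 times those given above. When 1 mouse was left out, the medians of 2 lists took either sign, proliferation from -0.12 (without mouse 5) to 0.22 (without mouse 4) and RNA polymerase I from -0.043 (without mouse 18) to 0.15 (without mouse 4). Of the other lists, the lowest were 0.042 for pseudouridine and rRNA modification, 0.047 for PAF1 and elongation and 0.13 for hnRNPs, each without mouse 2, 0.060 for ribosome assembly and 0.087 for cohesin without mouse 18, 0.12 for SWI/SNF without mouse 20 and 0.14 for splicing factors without mouse 5, and ribosome assembly was highest at 0.23 without mouse 19. The Rab acceptor median ran from -0.22 (without mouse 16) to -0.16 (without mouse 19).

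**Figure D5:**
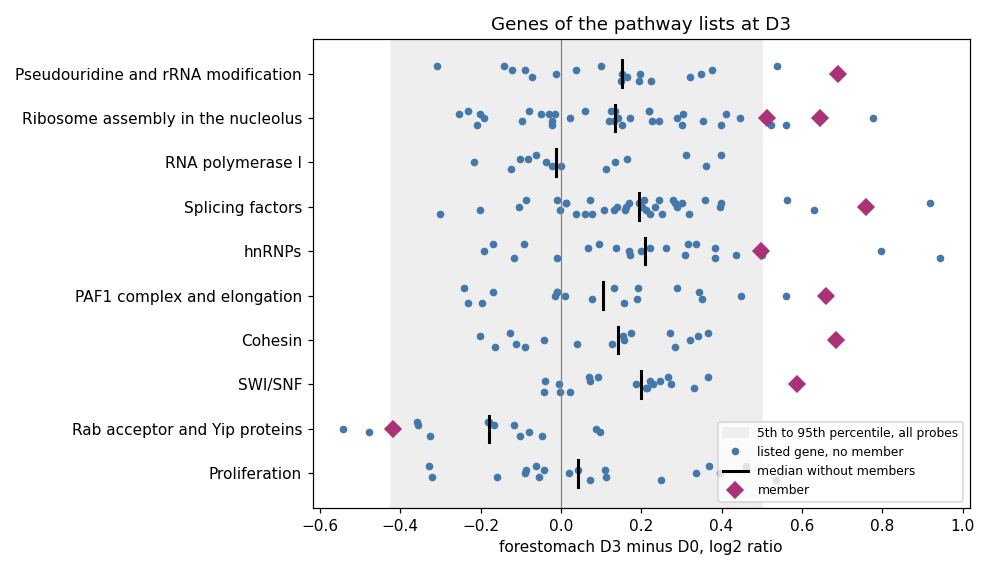
Forestomach D3 minus D0 log2 ratio of each listed gene that is no member (points), the median of these (bar) and the members (diamonds), over the 5th to 95th percentile of all probes (shaded, -0.42 to 0.50). Members lie toward the outer end of their lists, which is how they were chosen.

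Among 14063 other genes, those whose forestomach pattern was most like the mean of the members' leading probes, each scaled to an SD of 1, over the 19 arrays were Hps5 (Pearson r = 0.94), Als2cl (0.93), Hnrnph1 (0.92), Mlst8 (0.92) and Stx4a (0.91). Each array counts as a point, and the dose groups and slides are shared, so that r is descriptive. Hps5 went from -0.57 ± 0.13 at D0 to -0.10 ± 0.14 at D3, Als2cl from 0.33 ± 0.18 to 1.07 ± 0.17, Mlst8 from -0.70 ± 0.13 to -0.18 ± 0.23, and Stx4a from -0.63 ± 0.15 to -0.20 ± 0.14. In lung at D3 these 5 genes had changes between -0.086 and 0.039.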

How the data were processed

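The authors deposited scanner files with the median intensity of each spot and its local background in both channels and 0 or 1 flags, quantified per the file headers by Feature Extraction 10.7.3.1, and a table of log2 ratios (Cy5 over Cy3), made per the study's methods by LOWESS array by array, with no background subtracted. The deposited log2 ratios were used. They correlated with ratios computed here from the intensities at 0.977 to 0.998, and array medians were -0.046 to -0.020. There was no dye swap, and dye bias cancels only between arrays. The files hold no symbols, and 26413 probes (47.4%) were named through RefSeq accessions. A probe was tested where Cy5 was well above background on at least 3 arrays and no spot was non-uniform. Fits used limma 3.58.1 (R 4.3.3, lmFit and eBayes, two-sided), where the study's methods name MAANOVA. p was adjusted (Benjamini-Hochberg) over all probes of a fit, and calls needed an adjusted p of at most 0.05 and a fold change of at least 1.5. The trend used dose steps. The forestomach fit was run on simulated data with independent noise of the same SD for all probes. These data held no slide, column or brightness effect, so the run says nothing on such effects. All members were named in every tissue with the probe of highest mean Cy5 signal leading, in each list the genes with the highest and lowest D3 change, and the 5 genes most like the members. The members and lists were chosen with earlier results of these data known. The number of arrays limits the precision.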

Additional observations from a re-analysis of the deposited data

Results flagged for a closer look

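In 5 of the 121 groups of a member probe, tissue and dose that were checked, 1 array stood well apart from the rest, where chance gives about 1 in 20 groups. In forestomach these were mouse 12 at D2 for Rbm25 (-0.68, the others -0.24 to -0.19), mouse 10 at D1 (-0.091, the others 0.29 to 0.39) and mouse 16 at D3 (0.23, the others -0.26 to -0.12) for the second Rabac1 probe, and mouse 18 at D3 for the dim Trub2 probe (0.034, the others -0.35 to -0.29). In lung it was mouse 18 at D3 for Hnrnpm (-0.39, the others -0.69 to -0.62).

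At D3 every forestomach array of Brd7 and Gnl2 lay above its D0 mean and every lung array below it. The means differed by 0.69 for Brd7 (0.59 in forestomach, -0.10 in lung) and by 0.67 for Gnl2 (0.51 and -0.15). These were the 2 of 33 pairs of probe and tissues checked that did so. The rule chose members on this contrast, and the difference was not tested.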

How the results depend on the processing

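With median centring alone, the forestomach median of the 9 D3 changes was 1.15 and that of forestomach minus lung 0.95, against 0.61 to 0.78 and 0.64 to 0.74 under the other settings and 0.58 to 0.69 and 0.58 to 0.70 when 1 mouse was left out. It also gave 0.10 for the D3 change of the leading Rabac1 probe, -1.44 for Noc2l in forestomach minus lung, -0.79 for Rabac1 and -0.73 for Hnrnpm in forestomach minus liver, 0 members called in that last pair (1 with loess on the scanner signals) and 0 listed genes higher or lower. Listed genes lower numbered 8 with array weights, 7 with slide as a block, 2 with column, 7 with the Cy5 level, 12 on slides 1 and 2 and 0 on slide 3, and genes higher 20 on slide 3. Called ones were 2 with array weights and 3 on slides 1 and 2. Leaving out 1 mouse gave 27 to 51 higher, 1 to 7 lower (1 without mouse 20, 2 without mouse 1 or 4, 7 without mouse 3) and 6 to 7 members called in forestomach minus lung. Probes called over the whole array ran from 0 (loess, median centring) to 430 (slides 1 and 2) at D3, against 2, and from 0 (median centring, column) to 586 (slides 1 and 2) in the trend, against 11. The slide and Cy5 choices were made after seeing the data, except the block. The cause was not tested. The tissues came from the same mice. With mouse as a fixed term in the D0 tissue pairs, 7, 2 and 6 members were called as without it. No call changed there, beside 38.9%, 38.9% and 48.9% of all probes. The forestomach minus lung D3 effect was fitted with a shared correlation between arrays of 1 mouse instead. Its median stayed 0.66, and that correlation was 0.026. In liver and in lung D1 and D2, 0 members were called under every setting run. Column as a covariate was not run for lung. Dim signal on slides 1 and 2 limits Rbm25, Gnl2 and the second Trub2 probe. The other probes were well above background on all 19 forestomach arrays. Their lowest Cy5 signals, however, were 103 for Noc2l, 111 for Paf1, 137.5 for Brd7 and 139 for Smc1a. These lay within the 63 to 147.5 of the second Trub2 probe.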
